A study of Mus musculus with 4 samples.

Results

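Kainate receptors are glutamate-gated cation channels of the central nervous system, and the 7 genes described here encode their 5 pore-forming subunits (Grik1 to Grik5) and their 2 auxiliary subunits (Neto1 and Neto2). They were taken by gene symbol from the deposited count table of 52636 genes, in which each symbol had 1 row, and all 7 had enough counts to be among the 14673 genes tested. RNA was sequenced from cells sorted out of the dentate gyrus of C57BL/6 mice aged 6 to 7 weeks, with 2 libraries from wild type mice and 2 from littermates lacking Fmr1 (Fmr1-/y). Fmr1 encodes FMRP, the RNA-binding protein lost in fragile X syndrome. The series design names cells carrying the Dcx-DsRed reporter, in which red fluorescence marks cells that express doublecortin, a protein of neuroblasts and immature neurons. The protocol allows either 10000 reporter-positive or 10000 total live cells per sample, so the gate of each library is not settled by the labels. Whether the control littermates carried the reporter, whether animals were pooled and whether replicates stem from different animals is not stated in the labels. The p-values therefore set the genotype difference only against the spread between these libraries, and part of that spread may be technical.

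Subunits of the low-affinity group (GluK1, GluK2 and GluK3, from Grik1, Grik2 and Grik3) can form channels alone, whereas those of the high-affinity group (GluK4 and GluK5, from Grik4 and Grik5) form working channels only together with a low-affinity subunit. The Neto proteins are single-pass membrane proteins that slow the decay of kainate receptor currents and raise agonist affinity. In the dentate gyrus, granule neurons are the source of the mossy fibres, and the mossy fibre synapse onto CA3 pyramidal neurons is the classical site of synaptic kainate receptor currents.

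The low-affinity genes stand out as a group in the coding sequence of the pore loop. It is shown because it sets out how closely the 5 pore-forming members resemble each other. Each line gives 60 bases of the coding strand from a GENCODE M21 transcript, 5′ to 3′, with the glutamine codon of the Q/R site in capitals. In Grik1 and Grik2 this codon is a known target of RNA editing by Adarb1, which the gene counts do not show. Counted from the start codon, it is codon 636 in Grik1, 621 in Grik2, 623 in Grik3, 606 in Grik4 and 605 in Grik5.
Grik1: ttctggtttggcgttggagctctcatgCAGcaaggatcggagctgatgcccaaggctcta
Grik2: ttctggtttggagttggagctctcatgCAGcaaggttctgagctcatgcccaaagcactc
Grik3: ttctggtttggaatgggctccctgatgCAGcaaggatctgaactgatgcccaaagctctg
Grik4: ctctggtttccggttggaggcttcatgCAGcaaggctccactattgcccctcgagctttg
Grik5: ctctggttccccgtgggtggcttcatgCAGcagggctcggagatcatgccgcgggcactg
Over these 60 bases Grik1 and Grik2 were identical at 88.3% and each matched Grik3 at 81.7%, while Grik4 and Grik5 were identical at 71.7%. Between the low-affinity and the high-affinity genes the identity ran from 58.3% (Grik3 and Grik4) to 70.0% (Grik1 and Grik5). The highest of these was little below the match of Grik4 with Grik5.

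This resemblance bears on how reads can be assigned. The longest run of identical bases between annotated transcripts of any 2 of the 7 genes was 46 bases, between Grik2 and Grik3. No stretch of 100 bases, the length of a sequenced read, was shared between the transcripts of any of the 5 Grik genes or Neto2 and those of another annotated gene. For Neto1, 1.43% of such stretches also lay in AC113599.1, an antisense gene that shares 219 bases with its exons.

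The targeted gene was lower in the knockout libraries. Fmr1 had 73.1 and 91.6 CPM (counts scaled to library size by the TMM method) in the wild type libraries against 43.4 and 29.7 CPM in the knockouts, without overlap. Its log2 fold change was -1.17 ± 0.36 (standard error, as for each fold change below), and with an adjusted p of 0.9999 (edgeR quasi-likelihood, Benjamini-Hochberg) it was not called. Total counts ran from 5478224 to 7213759 per library. Across all tested genes edgeR called 0 at an adjusted p under 0.05 (a share of 0%), and 1.05% had an unadjusted p under 0.05, with 69 genes (0.47%) higher and 85 genes (0.579%) lower in the knockout. DESeq2, run on the 21493 genes with at least 1 count, also called 0, and before adjustment its p was under 0.05 for 158 higher and 222 lower genes.

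None of the 7 receptor genes was called between the genotypes, by edgeR or by DESeq2. With all 4 libraries fitted by genotype alone, none had an unadjusted p under 0.05 in either. Without knockout replicate 2 the log2 fold change moved to -1.52 for Grik3 and to -1.37 for Neto1. With all 4 libraries the estimate was above 0 for 4 and below 0 for 3 of the 7 genes, against 51.6% and 48.4% of all tested genes. Their median log2 fold change was 0.01 against 0.02 over all tested genes. For 2 of the 7, Grik5 and Neto2, the 2 knockout values both exceeded the wild type values, as they did for 11.8% of all tested genes. The reverse separation was found for 0 of the 7 and for 13.7% of all tested genes. The adjusted p of all 7 was 0.9999 (edgeR).

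**Figure D1:**
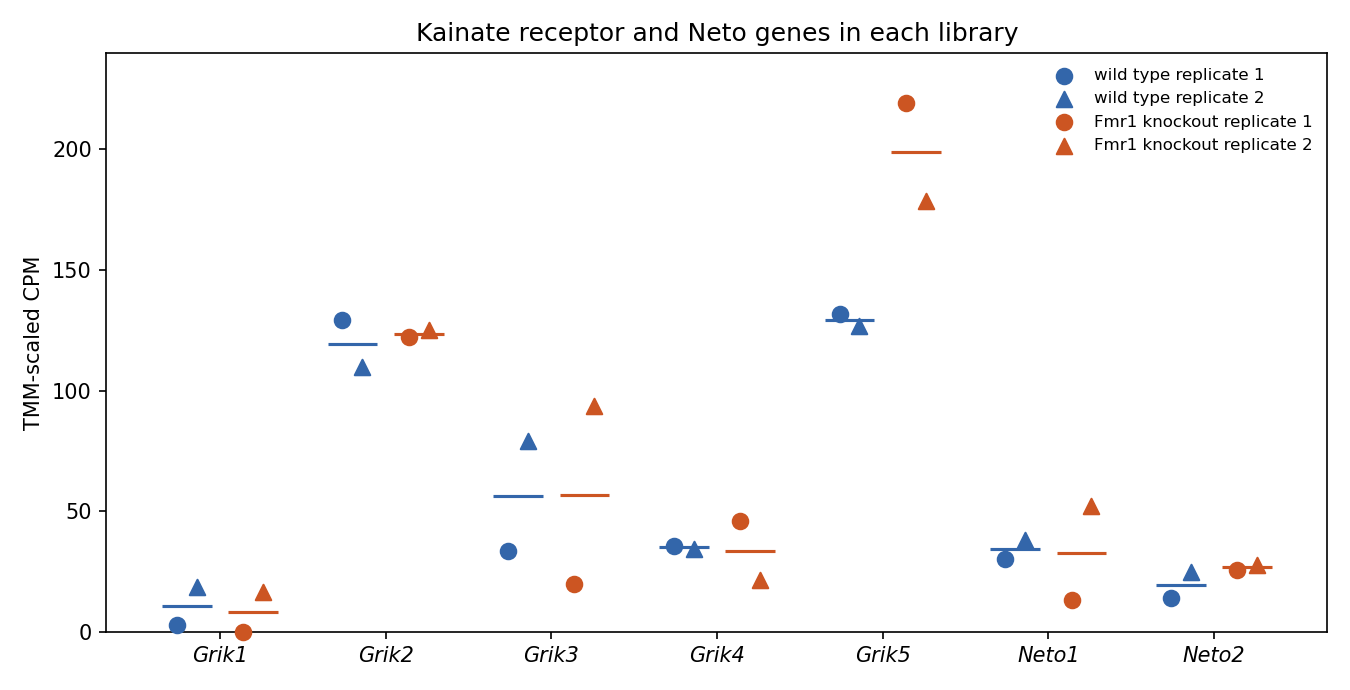
TMM-scaled CPM of the 7 genes in each of the 4 libraries, with horizontal lines at the mean of each genotype (n = 2). Grik5 lies at 127 and 132 CPM in wild type and at 179 and 219 CPM in knockout libraries. For Grik1, Grik3, Grik4 and Neto1 the knockout libraries lie on both sides of the wild type mean.

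Among the high-affinity subunits, Grik5 (ENSMUSG00000003378.9, chromosome 7, 25009849 to 25072346, minus strand, GRCm38), which encodes GluK5, the partner subunit of GluK2 in most brain kainate receptors, was the member with the smallest p. It had 778 and 882 counts in wild type and 1283 and 1102 counts in knockout libraries, or 131.9 and 127.0 CPM against 219.1 and 178.5 CPM. The lower knockout library stood above the higher wild type library, and the 2 wild type libraries lay close together. The means were 129.5 ± 3.46 and 198.8 ± 28.7 CPM (SD, n = 2 each), which is a log2 fold change of 0.62 ± 0.28 (95% interval -0.03 to 1.27). The unadjusted p was 0.0598, and the difference did not pass adjustment (adjusted p 0.9999, edgeR). The knockout library exceeded the wild type library among those numbered 1 (log2 difference 0.73) and among those numbered 2 (0.49), on the scale of log2(CPM + 0.5). With each library left out in turn the log2 fold change lay between 0.46 and 0.75.

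Grik4 (ENSMUSG00000032017.14, chromosome 9, 42518135 to 42944493, minus strand) encodes GluK4, the other high-affinity subunit, best known from CA3 and the dentate gyrus. Its level was 35.8 and 34.4 CPM in the wild type against 45.8 and 21.5 CPM in the knockout libraries. The wild type libraries were nearly equal and the knockout libraries lay on either side of them. The log2 fold change was -0.06 ± 0.47 (adjusted p 0.9999, edgeR), and without knockout replicate 2 it turned to 0.37.

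Grik2 (ENSMUSG00000056073.16, chromosome 10, 49094833 to 49788766, minus strand), whose product GluK2 is the main low-affinity subunit at the mossy fibre synapse, was the steadiest member. It had 763 and 762 counts in wild type and 716 and 772 counts in knockout libraries, which scaled to 129.4 and 109.7 CPM and to 122.3 and 125.1 CPM. Both knockout values fell between the wild type values. The log2 fold change was 0.05 ± 0.28 (95% interval -0.61 to 0.71), so changes of the size estimated for Grik5 lay within the interval on the higher side. The sign was not stable, at -0.08 without wild type replicate 2 and -0.02 when libraries were scaled by their size alone.

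Grik3 (ENSMUSG00000001985.9, chromosome 4, 125490700 to 125714173, plus strand), encoding GluK3, a low-affinity subunit also placed at presynaptic sites of mossy fibres, had 33.4 and 79.3 CPM in the wild type against 19.8 and 93.8 CPM in the knockout libraries. The libraries numbered 2 were the high ones in both genotypes, and the knockout values enclosed the wild type values. The means were 56.4 ± 32.5 and 56.8 ± 52.3 CPM (SD, n = 2 each), which is a log2 fold change of 0.01 ± 0.73 (adjusted p 0.9999, edgeR). Leaving out 1 library moved this estimate from -1.52 (without knockout replicate 2) or -0.49 (without wild type replicate 1) to 0.73 (without knockout replicate 1) or 0.76 (without wild type replicate 2).

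Grik1 (ENSMUSG00000022935.15, chromosome 16, 87895900 to 88290265, minus strand), encoding GluK1, a subunit known in hippocampus chiefly from interneurons, was the least abundant member. It was counted 18 and 129 times in wild type and 0 and 103 times in knockout libraries, or 3.05 and 18.6 CPM against 0 and 16.7 CPM. Again the libraries numbered 2 held nearly all of the counts. A count of 0 in knockout replicate 1 allows up to 0.512 CPM (3 counts, counting error only). The measured level was 32.6-fold above that limit in knockout replicate 2 and 5.96-fold above it in wild type replicate 1. These folds leave out the error of the compared libraries, which for wild type replicate 1 rests on 18 counts. The log2 fold change between genotypes was -0.37 ± 1.71 (95% interval -4.43 to 3.69), and it turned to 1.44 without wild type replicate 2 and to 0.62 without knockout replicate 1. The wild type mean was 21.1-fold above the same limit, but its 2 libraries differed widely. Without knockout replicate 2 the fitted fold change rests on the library with 0 counts and is no bound.

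Of the auxiliary subunits, Neto1 (ENSMUSG00000050321.2, chromosome 18, 86394952 to 86506718, plus strand), which also binds NMDA receptors, had 30.2 and 38.2 CPM in the wild type against 13.3 and 52.3 CPM in the knockout libraries. The knockout libraries held both the lowest and the highest value. The log2 fold change was -0.06 ± 0.64 (adjusted p 0.9999, edgeR), -1.37 without knockout replicate 2, 0.61 without knockout replicate 1 and 0.11 without wild type replicate 2.

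Neto2 (ENSMUSG00000036902.11, chromosome 8, 85636588 to 85700924, minus strand), the second auxiliary subunit, had 13.9 and 24.9 CPM in the wild type against 25.8 and 27.9 CPM in the knockout libraries. The genotypes did not overlap, but the lower knockout library stood only just above the higher wild type library. The log2 fold change was 0.47 ± 0.50 and an unadjusted p of 0.379 (adjusted p 0.9999, edgeR). It was 0.10 without wild type replicate 1 and 0.93 without wild type replicate 2.

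**Figure D2:**
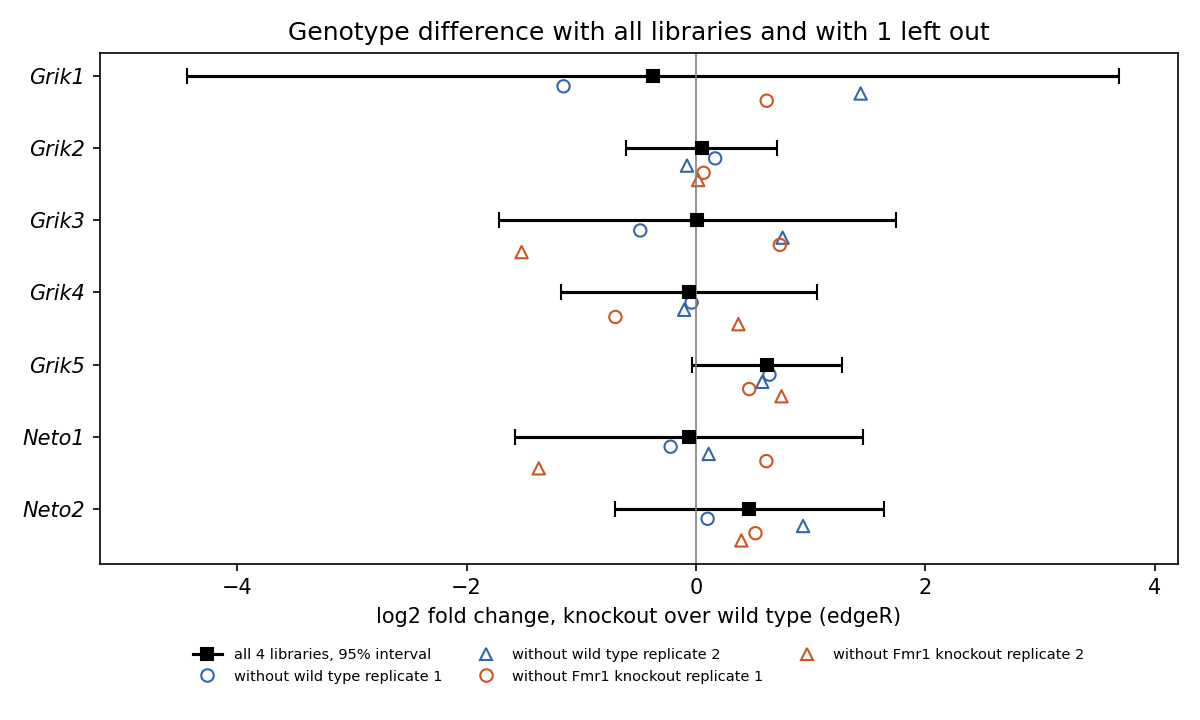
Log2 fold change of each gene, knockout over wild type, from edgeR with all 4 libraries (squares, with 95% intervals) and with 1 library left out (open symbols). All 7 intervals include 0, and Grik5 and Neto2 are the members whose open symbols all lie on 1 side of 0; the value of Grik1 without knockout replicate 2 is not drawn because the remaining knockout library has 0 counts.

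Levels of different genes were compared per kilobase of the gene length listed in the table. Grik5 was the most abundant of the 7 in each library, at 25.5 and 24.6 CPM per kilobase in wild type and 42.4 and 34.5 in knockout libraries. Next came Neto1 with a mean over the 4 libraries of 9.49 and Grik2 with 9.18 CPM per kilobase, and Neto1 was the higher of these in 2 of 4 libraries, so their order was not settled. Nor was that of Grik2 and Grik3, since Grik2 was the higher in 2 of 4 libraries. The place of Neto1 also rests on its listed length of 3531 bases. Its GENCODE M21 transcripts hold 8446 different stretches of 100 bases, and which gene model was counted is not stated. Grik3 (mean 6.31) and Grik4 (5.77) likewise changed places, with Grik3 higher in 2 of 4 libraries. Neto2 had 3.77 and Grik1 1.55 CPM per kilobase, and Neto2 lay above Grik1 in all 4 libraries and below Grik4 in 3 of 4.

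Within the pore-forming subunits, the high-affinity genes Grik4 and Grik5 together made up 69.3% and 60.1% of the summed level per kilobase in wild type and 81.4% and 62.8% in knockout libraries. The higher wild type share lay between the knockout shares. The size of these shares depends on the listed gene lengths. The means were 64.7% ± 6.47 and 72.1% ± 13.1 (SD, n = 2 each), a difference of 7.41 percentage points with a p of 0.667 in a two-sided exact permutation test, in which 2 against 2 libraries cannot go below 0.333. Without knockout replicate 1 the difference was -1.89 percentage points, and without knockout replicate 2 it was 16.7.

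The ratio of Grik5 to Grik2, the pair that co-assembles in many neurons, did not overlap between genotypes. It was 2.61 and 2.97 in wild type and 4.59 and 3.66 in knockout libraries (means 2.79 ± 0.25 and 4.13 ± 0.66, SD, n = 2 each; two-sided exact permutation p 0.333, the smallest possible here). This ratio was computed after the values of both genes had been seen, and it shares its counts with the Grik5 comparison. Its size, but not the lack of overlap, depends on the listed lengths of 5168 bases (Grik5) and 13246 bases (Grik2). Before division by length, Grik5 had 131.9 and 127.0 CPM and Grik2 129.4 and 109.7 CPM in wild type. In knockout libraries Grik5 had 219.1 and 178.5 CPM and Grik2 122.3 and 125.1 CPM. Summed Neto1 and Neto2 stood at 0.238 and 0.295 of the summed Grik level in wild type and at 0.13 and 0.319 in knockout libraries, so the knockout values enclosed the wild type values. The size of this ratio depends on the listed length of Neto1.

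**Figure D3:**
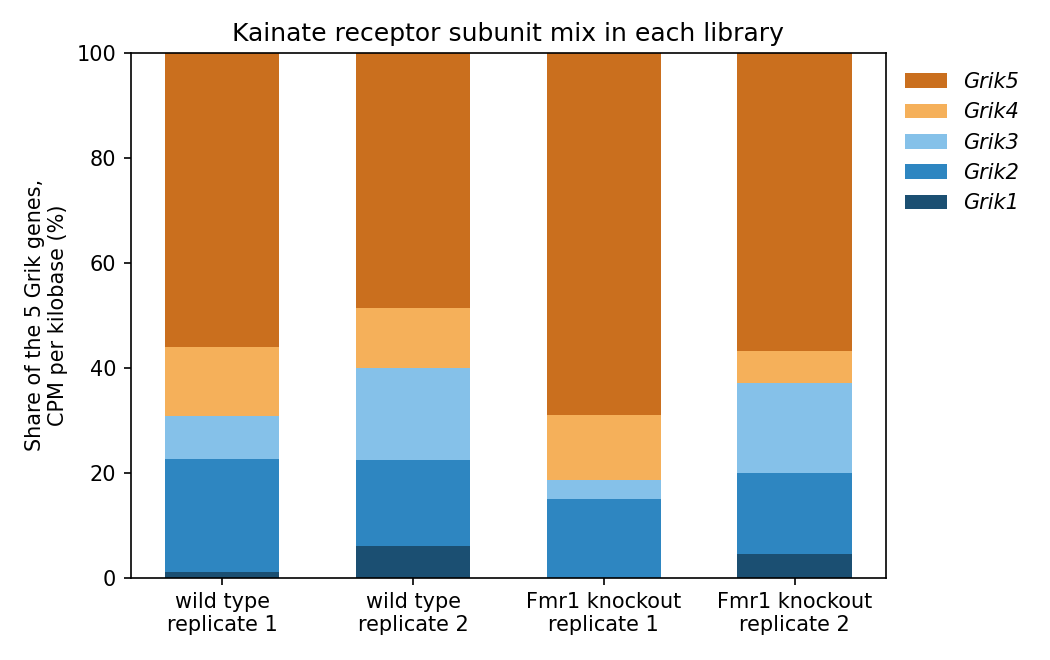
Share of each pore-forming subunit gene in the summed level of Grik1 to Grik5, from CPM per kilobase of gene length, in each library. Grik5 takes 48.7% to 68.9% of the bar, and the share of Grik3 is 17.5% and 17.2% in the libraries numbered 2 against 8.18% and 3.59% in those numbered 1.

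Much of the variation of Grik1 and Grik3 ran between libraries of 1 genotype. Grik1 and Grik3 were the 2 of 7 members at least 2-fold higher (a log2 difference of 1 or more) in replicate 2 than in replicate 1 of both genotypes, a pattern shown by 5.96% of all tested genes. For Grik3 the log2 difference between replicates was 1.24 in wild type and 2.21 in knockout, and for Neto1 it was 0.33 and 1.93. Grik2 differed by -0.24 and 0.03, the smallest difference in the knockout but not in the wild type, and Neto2 by 0.82 and 0.11. Grik5 differed by -0.05 and -0.29, and Grik4 by -0.05 and -1.07.

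Markers of other cell types moved with the same libraries. All 6 oligodendrocyte precursor markers were higher in replicate 2 than in replicate 1 of both genotypes, and their summed level was 453 and 3467 CPM in the wild type against 732 and 4298 CPM in the knockout libraries. Pdgfra, the receptor that defines these precursors, had 132 and 1186 CPM in the wild type against 133 and 1485 CPM in the knockout libraries, and Olig2, a transcription factor of the lineage, had 22.0 and 256.9 CPM against 47.0 and 406.0 CPM. All 6 markers of mature oligodendrocytes had the same pattern, summing to 1819 and 10416 CPM in the wild type against 3801 and 9508 CPM in the knockout libraries. Mag, an adhesion molecule of myelin, ranged from 137 to 407 CPM.

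Markers of neuroblasts and immature neurons ran the other way, with 10 of 10 lower in replicate 2 of both genotypes. Their sum was 3094 and 1644 CPM in the wild type against 3591 and 1791 CPM in the knockout libraries. Dcx itself had 330 and 166 CPM in the wild type against 456 and 211 CPM in the knockout libraries, and Prox1, the transcription factor of granule neurons, had 874 and 540 CPM against 951 and 481 CPM. The part of these cell types in the levels of Grik1, Grik3 and Neto1 was not tested. In bulk samples a smaller number of cells of a type and less RNA per cell cannot be told apart.

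Of the mature granule neuron markers, 7 of 8 were higher in replicate 2 than in replicate 1 of both genotypes. They summed to 1141 and 2232 CPM in the wild type against 1188 and 3403 CPM in the knockout libraries, where the kinase Camk2a took the largest part and Calb1, a calcium-binding protein of mature granule neurons, had 38.3 and 71.6 CPM against 24.1 and 34.2 CPM. By genotype the estimates of this list were split, with 4 above 0 and 4 below. Other lists leaned to 1 side. Estimates were above 0 for 6 of 6 oligodendrocyte precursor, 5 of 6 oligodendrocyte and 8 of 10 neuroblast and immature neuron markers. The same held for 4 of 4 tested interneuron markers (median log2 fold change 1.44), against 51.6% of all tested genes. The cause was not tested. Astrocyte and radial glia markers summed to between 6364 and 9012 CPM, mostly the glutamate transporter Slc1a2, and Hes5, a Notch target, had 20.0 and 35.3 CPM against 48.5 and 41.0 CPM. Hes5 went against most of this list, in which 3 of 8 estimates were above 0 and 5 below, with a median log2 fold change of -0.24. Interneuron markers summed to between 68.3 and 149.2 CPM, mostly from Gad1, and Gad2 had 1.36 and 9.36 CPM against 5.30 and 32.4 CPM. Of the 8 interneuron markers, Sst, Pvalb, Vip, Npy and Lhx6 had 0 counts in wild type replicate 1, Pvalb, Npy and Lhx6 in knockout replicate 1, and Npy in knockout replicate 2.

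Markers of pyramidal and mossy neurons summed to between 50.5 and 64.2 CPM, with Wfs1 the highest, and Bok, enriched in CA3, had 4.58 and 6.19 CPM against 15.4 and 11.5 CPM. The 4 tested genes of the list had 2 estimates above 0 and 2 below, with a median of -0.11. In this list Drd2, a marker of mossy cells, had 0 counts in both libraries numbered 1. Microglial markers summed to between 15.8 and 49.1 CPM and endothelial markers to between 13.6 and 56.6 CPM. Among these low lists, Csf1r and Flt1 were the highest, C1qb had 0.34 and 2.16 CPM against 12.3 and 15.9 CPM, and Cldn5 had 1.53 and 6.62 CPM against 0 and 0.16 CPM. Neither stands for its list, since the tested microglial markers had 2 estimates above 0 and 3 below and the endothelial markers 4 above 0 and 2 below. The marker C1qc had 0 counts in both libraries numbered 1, Tmem119 in knockout replicate 2, Pecam1 in wild type replicate 1 and Cldn5 in knockout replicate 1. No gene of the marker lists was called (edgeR), and 1, C1qb, had an unadjusted p under 0.05.

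**Figure D4:**
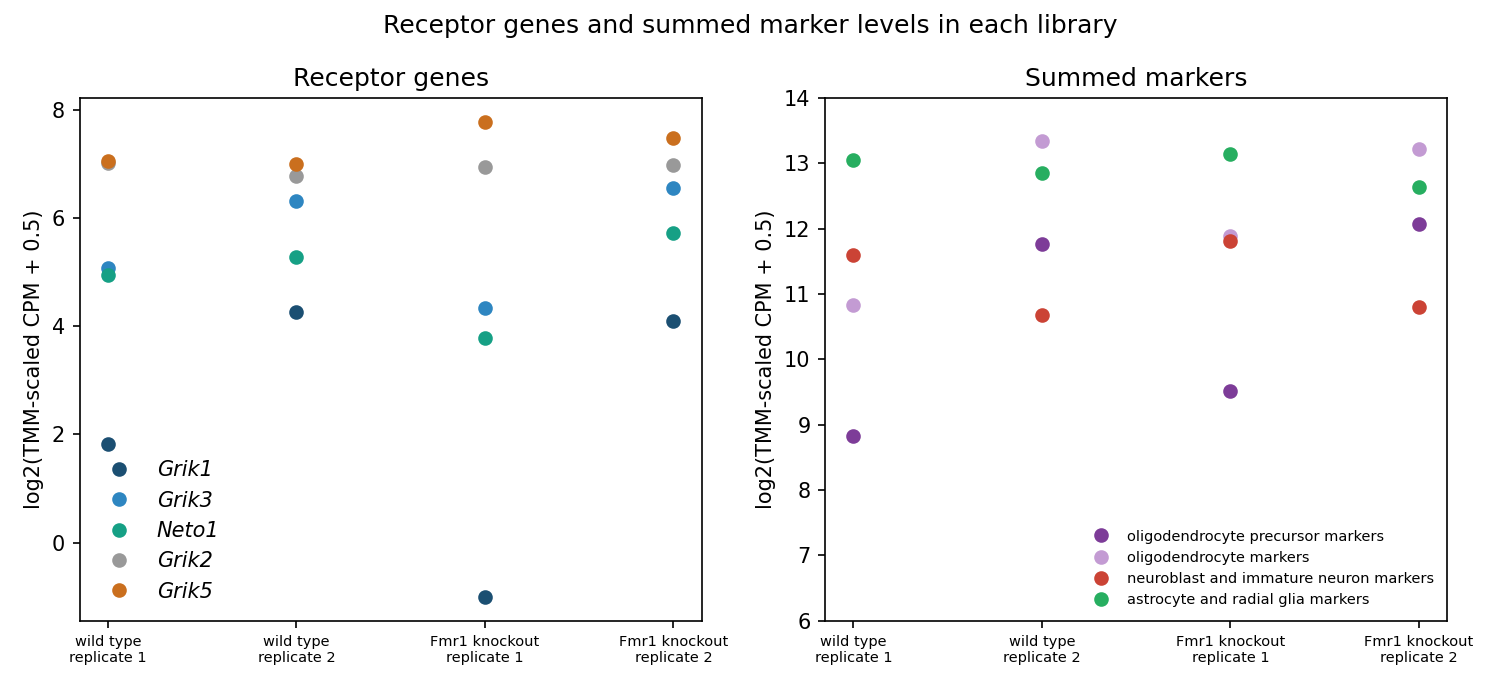
Left, log2(CPM + 0.5) of 5 receptor genes in each library; right, the same for the summed markers of 4 cell types. Grik1, Grik3 and the oligodendrocyte lineage markers are high in the libraries numbered 2 of both genotypes, where the neuroblast markers are low, and Grik2 and Grik5 show no such pattern.

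Likeness between genes was measured as the mean absolute difference of log2(CPM + 0.5), each gene centred on its own mean over the 4 libraries, among 106 tested genes of the lists used here. Grik2 lay nearest to C1ql2 (0.06), a secreted protein of mossy fibre synapses that binds kainate receptors, and to the AMPA receptor subunit Gria2 (0.08). Grik4 lay nearest to the NMDA receptor subunit Grin2c (0.08) and the astrocytic glutamate transporter Slc1a3 (0.13). Grik5 lay nearest to the neuroblast transcription factor Sox4 (0.11) and to Cacng8 (0.18), an AMPA receptor auxiliary subunit. Neto2 lay nearest to Adarb2 (0.10) and Hes5 (0.14), and Grik3 to the endothelial gene Esam (0.12) and the kinase Prkca (0.31). Neto1 lay nearest to Esam (0.23) and the AMPA receptor subunit Gria3 (0.27), although Esam had only 1.54 to 7.62 CPM. Grik1 had no close neighbour, with Pou3f1 (0.65) and Pdgfra (0.83) the nearest. With 4 libraries these distances are a description only.

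Proteins that bind, traffic or edit kainate receptors showed no call either. Of 26 listed genes 24 were found in the table under the symbol used, and all 24 were tested. Estimates were above 0 for 14 and below 0 for 10, with a median log2 fold change of 0.04 against 0.02 over all tested genes, 0 called and 0 with an unadjusted p under 0.05 (edgeR and DESeq2). The knockout values both exceeded the wild type values in 0 of 24, against 11.8% of all tested genes. They both fell short of the wild type values in 3 of 24, near the share of 13.7% over all tested genes. With the replicate number as a block, 5 genes of this list and the 2 glutamate receptor lists below had an unadjusted p under 0.05 (edgeR). Of all tested genes 5.3% had one in that fit, and 0 genes of these lists were called. The 3 with both knockout values lower, singled out after their values were seen, were Pick1, a PDZ protein that binds GluK2, Klhl24, a partner of GluK2 also called KRIP6, and Nsf, an ATPase of membrane fusion. Nsf had 419 and 409 CPM in the wild type against 304 and 380 CPM in the knockout libraries.

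The most abundant gene of this list was Gnao1, a G protein subunit, at 1058 and 848 CPM in the wild type against 1145 and 746 CPM in the knockout libraries. The smallest p belonged to Adarb1, the enzyme that edits the Q/R codon shown above. Adarb1 had 51.0 and 74.2 CPM in the wild type against 70.5 and 139.2 CPM in the knockout libraries, with overlap between the genotypes, a log2 fold change of 0.74 ± 0.41 (unadjusted p 0.116, adjusted p 0.9999, edgeR).

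Other ionotropic glutamate receptors were tested for 12 of 13 genes. Estimates were above 0 for 7 and below 0 for 5, the median was 0.08, 0 were called and 0 had an unadjusted p under 0.05 (edgeR and DESeq2). Gria2, the subunit that limits calcium entry through AMPA receptors, was the most abundant at 1648 and 1266 CPM in the wild type against 1527 and 1382 CPM in the knockout libraries. Gria1, named after its values were seen, was the 1 gene of the list whose knockout values both exceeded the wild type values, at 497 and 529 CPM against 554 and 570 CPM, a separation found for 11.8% of all tested genes.

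All 13 AMPA receptor auxiliary subunits were tested, with 8 estimates above 0 and 5 below, a median of 0.12, 0 called and 0 with an unadjusted p under 0.05 (edgeR and DESeq2). Shisa7 was the most abundant at 71.4 and 135.8 CPM in the wild type against 118.4 and 106.6 CPM in the knockout libraries. Cnih2, a cornichon protein that slows AMPA receptor gating, had the smallest p, at 97.0 and 66.2 CPM in the wild type against 104.2 and 131.7 CPM in the knockout libraries, a log2 fold change of 0.53 ± 0.33 (unadjusted p 0.149, adjusted p 0.9999, edgeR). It and Gsg1l, named after its values were seen, were the 2 of 13 genes of this list with that separation, near the share of 11.8% over all tested genes.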

How the data were processed

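Raw counts per gene were deposited as 1 table with a column for each of the 4 libraries and a column of gene lengths in bases. It holds 0 further columns of per-sample values. Per the labels' protocols the libraries were poly(A)-selected, strand-specific and sequenced as read pairs of 100 bases, and reads were aligned to GRCm38 with a Gencode annotation. The aligner was STAR 2.5.3a, per the submitters' processing notes. Details not given in the sources used here include the counting program, its strand setting and the annotation release. Positions and transcripts came from GENCODE M21 (GRCm38), which holds 99.56% of the table's genes and was chosen here.

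Replicates differed by more than counting noise (chi-square per degree of freedom 38.2 in wild type and 54.2 in knockout). Counts were filtered with filterByExpr (minimum count 10), scaled by TMM and tested on all genes with edgeR 4.0.16 in R 4.3.3 (robust glmQLFit, two-sided quasi-likelihood F-test, genotype only). Genes with a Benjamini-Hochberg adjusted p under 0.05 were called. The standard error is the log2 fold change over the square root of F. The fitting code was run on simulated counts, and only the median size of its estimates at a smaller spread than here was required to be right. Power and false calls at the spread of these data are not reported here.

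Members and lists were chosen with earlier results of these data known. Named are all members, Fmr1, the most abundant gene and the gene with the smallest p of each list, and the 2 nearest genes of each member. Some genes that this rule takes are not named here. Others are said to be named after their values were seen, or are given as defining markers. Alternatives were DESeq2 1.42.0, other scalings, no filter, no robust estimation, a replicate block and leaving out each library.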

Additional observations from a re-analysis of the deposited data

How the results depend on the processing

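The count of receptor genes called stayed at 0 under each of the 10 alternatives, as did that of the partner, ionotropic and auxiliary lists. Over all genes it was 0 except with the replicate number as a block, which called 10. The labels do not say that a number marks shared animals or batches, and the deviations of same-numbered libraries correlated at 0.38 across genes. In that block fit Grik5 had a log2 fold change of 0.61 (unadjusted p 0.00314, adjusted p 0.49, edgeR), Grik3 turned to -0.23, and Grik1 moved to -1.63 (unadjusted p 0.0779) and Neto1 to -0.33. In fits of all 4 libraries, genes with an unadjusted p under 0.05 were counted over the partner, ionotropic and auxiliary lists together (edgeR). They numbered 0 in the reported fit, 5 with the block and 2 without the filter. The shares of all tested genes in these fits were 1.05%, 5.3% and 1.22%. Of 70 values of the 7 genes under the alternatives, 59 kept their direction and side of the threshold and 11 reversed direction. Scaling by library size alone gave -0.020 for Grik2 and -0.073 for Grik3. With 1 library left out, where the lone library is assumed to vary like the other group, the log2 fold change ran from -9.08 to 1.44 for Grik1, -0.078 to 0.17 for Grik2, -1.52 to 0.76 for Grik3, -0.70 to 0.37 for Grik4, 0.46 to 0.75 for Grik5, -1.37 to 0.61 for Neto1 and 0.10 to 0.93 for Neto2. The lowest value of Grik1 is fitted against 0 counts and is no bound. The difference in the Grik4 and Grik5 share ran from -1.89 to 16.7 percentage points with 1 library left out, and was 8.50 without division by gene length. The causes were not tested. With 2 libraries a genotype and a common biological coefficient of variation of 0.54, the spread between replicates, and for Grik1 also the low counts, limited these comparisons.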
